A study of Homo sapiens with 24 samples.

Results

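The interferon response genes are a list of 45 genes that cells are known to transcribe in answer to interferons, and 43 of them were measured among the 12165 genes of the array. STAT2 and TRIM21 were not analysed here. Each gene was read from its brightest probe set that carries a single gene symbol. Of the 43 genes, 19 were read by a probe set that can also bind related transcripts. Of the same 43, 9 were dim, with a mean in the dimmest 33.3% of all genes, which lay below an intensity of 11.7. These were IFIT1, OAS1, OAS2, OASL, MX1, CXCL10, LGALS3BP, IFI27 and IFI44L.

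RNA came from 4 human acute myeloid leukemia lines, each cultured for 24 h with the solvent DMSO or with R406 at 4 µM, and 3 arrays were made for each of the 8 groups. KG-1 resembles early myeloblasts and HL-60 promyelocytes, while U937 and MOLM-14 are classed as monocytic, the latter with MLL-AF9 and a FLT3 internal tandem duplication. R406, the active form of fostamatinib, inhibits the kinase SYK and other kinases. The unit of the dose is µM in the treatment protocol but mM in the series design text, and the former is used here. Each line is an established culture, the labels do not say how far the 3 replicates were kept apart, and p-values therefore measure the spread between these arrays, which may be technical.

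Type I interferons bind the IFNAR1 and IFNAR2 receptor, whose kinases JAK1 and TYK2 phosphorylate STAT proteins. These join IRF9 and bind the interferon-stimulated response element (ISRE) of their target genes, while interferon gamma acts through JAK1 and JAK2 on the gamma-activated site (GAS). The products sense foreign RNA, block viral entry and replication, tag proteins with ISG15 and build nuclear bodies. In myeloid cells many of these genes also have a steady level without added interferon and change with differentiation.

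Intensities ran from 3.41 to 12686 over the 24 arrays, with array medians of 19.1 to 21.4. Precision is limited by the 3 arrays a group. Arrays lay 0.132 to 0.269 (SD of log2 differences) from their group mates, and KG-1 R406 replicate 2 lay furthest. The log2 ratio of the 3′ to the 5′ ACTB control probe set, a sign of RNA quality, was 0.34 higher under R406 in MOLM-14 and 0.12 higher in KG-1, 0.13 lower in HL-60 and 0.039 lower in U937; the exact permutation p was 0.1 in MOLM-14, HL-60 and KG-1, the smallest that 3 against 3 arrays allow, and 0.6 in U937. Summed progenitor markers were 2150 in KG-1 under DMSO against 47.3 to 134 in the other lines, and summed granule markers 227 in KG-1 against 7513 to 10821. Markers of cells that the cultures should lack were summed too: fibroblast markers (3 of 3 measured) gave 38.9 to 43.2 in every group, B cell markers (2 of 3) 18.1 to 25.8 and erythroid markers (2 of 3) 17.8 to 31.1. Plasmacytoid dendritic markers (2 of 3), which mark the chief producers of type I interferon but are also found on leukemic cells, summed to 236 and 507 in MOLM-14 under DMSO and R406, 438 and 625 in KG-1, and 110 to 206 in the other groups. In MOLM-14 these 2 markers parted: IL3RA was 164 under DMSO and 474 under R406, and TCF4 71.2 and 32.8. Under R406, summed monocytic markers (5 of 6) went from 819 to 1360 in HL-60 and from 542 to 177 in KG-1. In HL-60, however, CD14 went from 279 to 853 and FCGR1A from 332 to 182. The monocytic sums under DMSO and R406 were 408 and 404 in MOLM-14 and 194 and 290 in U937. Granule markers went from 7513 to 4589 in MOLM-14 and from 10821 to 6166 in HL-60. Progenitor markers went from 2150 to 3738 in KG-1, 74.3 to 178 in MOLM-14 and 134 to 220.2 in HL-60. The single markers parted in the latter 2 lines. In MOLM-14 KIT went from 17.9 to 144, GATA2 from 39.5 to 18.3 and CD34 from 17.0 to 15.6. In HL-60 GATA2 went from 78.9 to 183 and KIT from 37.0 to 18.8, and CD34 was 17.9 and 18.0. T and NK markers (4 of 4) gave 841 and 979 in U937 and 148 to 573 elsewhere. In U937 NKG7 alone gave 811 and 948 of these sums, and CD3D, CD3E and CD2 each gave 7.10 to 14.8. The part of these differences in the results below was not tested. In bulk RNA, fewer cells that express a gene and less RNA per cell cannot be told apart.

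Promoters from RefSeq (GRCh38.p14, from upstream of the start to just inside the gene) were found for 36 of the 43 genes. They were searched on both strands for the ISRE core, which is GAAA, any 2 bases and GAAA again, and for GAS, TTCNNNGAA. The ISRE core was present in 23 of 36 promoters (63.9%), against 3.65% of the 27305 promoters in the table. A GAS match was present in 9 of 36 (25%), against 7.88% of all. The 23 promoters held 41 ISRE matches, of which 4 overlapped a GAS match. A match is a string of letters in this window and was not shown to be bound.

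The 6 promoters printed here belong to genes whose values carry the results: ISG20 and IFIH1 rose in MOLM-14, TRIM14 fell in MOLM-14, HL-60 and KG-1, IFITM3 fell in KG-1 and U937, ISG15 was called in no line, and IFI16 rose in all 4 lines. They are written 5′ to 3′ in the direction of the gene, with the ISRE cores in capitals. ISG20 lies on the plus strand, chr15:88638766-88639065, with a match that begins 69 bases before the start. IFIH1 lies on the minus strand, chr2:162318635-162318934, with matches that begin 159, 153 and 21 bases before it. TRIM14 lies on the minus strand, chr9:98119173-98119472, with a match at 26 bases. IFITM3 lies on the minus strand, chr11:320811-321110, with matches at 52 and 35 bases. ISG15 lies on the plus strand, chr1:1013247-1013546, with overlapping matches at 113 and 107 bases, and IFI16 on the plus strand, chr1:159008741-159009040, with no match in the window.
ISG20: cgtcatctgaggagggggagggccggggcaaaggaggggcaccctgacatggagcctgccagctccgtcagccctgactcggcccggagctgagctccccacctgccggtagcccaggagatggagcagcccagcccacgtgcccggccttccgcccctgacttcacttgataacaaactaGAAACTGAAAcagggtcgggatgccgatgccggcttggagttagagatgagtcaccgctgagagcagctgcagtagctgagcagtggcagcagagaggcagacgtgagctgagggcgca
IFIH1: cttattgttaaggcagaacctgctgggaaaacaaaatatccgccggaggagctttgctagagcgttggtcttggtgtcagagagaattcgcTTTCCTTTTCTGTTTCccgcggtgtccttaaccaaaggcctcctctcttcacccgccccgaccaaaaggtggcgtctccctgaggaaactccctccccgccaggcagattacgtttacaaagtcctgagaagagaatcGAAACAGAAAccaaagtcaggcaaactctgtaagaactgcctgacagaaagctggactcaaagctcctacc
TRIM14: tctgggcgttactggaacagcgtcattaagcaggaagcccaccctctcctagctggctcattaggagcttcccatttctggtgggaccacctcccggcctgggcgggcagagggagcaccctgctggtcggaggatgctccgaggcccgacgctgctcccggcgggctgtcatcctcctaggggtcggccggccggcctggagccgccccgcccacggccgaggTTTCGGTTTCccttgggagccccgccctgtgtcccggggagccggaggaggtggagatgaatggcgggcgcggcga
IFITM3: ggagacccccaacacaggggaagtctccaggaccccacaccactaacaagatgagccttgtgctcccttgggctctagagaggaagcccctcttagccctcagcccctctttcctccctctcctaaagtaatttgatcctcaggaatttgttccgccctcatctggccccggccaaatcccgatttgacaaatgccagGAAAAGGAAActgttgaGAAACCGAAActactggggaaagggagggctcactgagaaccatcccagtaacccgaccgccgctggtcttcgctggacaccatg
ISG15: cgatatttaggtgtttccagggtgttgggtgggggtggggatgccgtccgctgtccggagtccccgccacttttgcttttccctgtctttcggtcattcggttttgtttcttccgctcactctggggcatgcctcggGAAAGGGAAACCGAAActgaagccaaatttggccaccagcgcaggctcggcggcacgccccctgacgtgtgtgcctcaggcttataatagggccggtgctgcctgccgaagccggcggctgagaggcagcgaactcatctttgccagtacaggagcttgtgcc
IFI16: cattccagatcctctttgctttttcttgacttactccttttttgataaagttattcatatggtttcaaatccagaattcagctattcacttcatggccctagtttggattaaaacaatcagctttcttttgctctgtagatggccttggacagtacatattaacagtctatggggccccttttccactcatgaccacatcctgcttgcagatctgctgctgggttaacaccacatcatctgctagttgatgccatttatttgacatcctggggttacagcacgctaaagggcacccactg

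Genes with and without the ISRE core were counted apart, as a description. The search did not match GAAA repeats spaced by 1 base, as in the promoters of OAS1, RSAD2, XAF1, IFI35 and SP110, counted as without. Having no match therefore does not mean that a gene lacks such an element. In MOLM-14, 6 of the 23 genes with an ISRE core rose and 4 fell, and 8 of the 13 without one rose (31.1% of all genes rose and 25% fell). In KG-1, 3 with the core rose and 7 fell, and 6 without it rose and 1 fell (23.5% and 20.9% of all genes). In U937, 5 with the core rose and 1 fell, and 5 without it rose (6.1% and 5.43%). In HL-60, 1 with the core rose and 1 fell, and 2 without it rose and 2 fell (7.2% and 7.98%). The median log2 difference with and without the core was 0.13 and 0.27 in MOLM-14, 0.071 and 0.26 in U937, -0.028 and 0.14 in HL-60 and -0.051 and 0.24 in KG-1, beside 0.068, 0.0029, -0.0029 and 0.020 over all genes.

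The question was how R406 changed these genes in each line. A gene was called where its adjusted p (limma, Benjamini-Hochberg over all 12165 genes) was under 0.05, and all differences are R406 minus DMSO on the scale of log2(intensity + 1). In MOLM-14, 19 of 43 genes rose and 4 fell, against 31.1% and 25% of all genes, with ISG20, IFIH1, IFI16, GBP2, IRF9, IRF7 and RSAD2 the furthest up and TRIM14 the furthest down. In KG-1, 13 rose and 8 fell, against 23.5% and 20.9% of all genes. In U937, 12 rose and 1 fell, against 6.1% and 5.43%, and in HL-60 5 rose and 4 fell, against 7.2% and 7.98%. The list's median difference was 0.21 in MOLM-14, 0.095 in U937, 0.035 in HL-60 and 0.091 in KG-1, against 0.068, 0.0029, -0.0029 and 0.020 for all genes. Calls in either direction thus covered 53.5% of the list in MOLM-14 against 56.1% of all genes, 48.8% against 44.3% in KG-1, 20.9% against 15.2% in HL-60 and 30.2% against 11.5% in U937. The U937 count rested on its arrays: without U937 R406 replicate 3 it was 6 higher, and without U937 DMSO replicate 3 the gene that fell was lost. The 4 that fell in HL-60 became 2 without HL-60 R406 replicate 3.

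**Figure D1:**
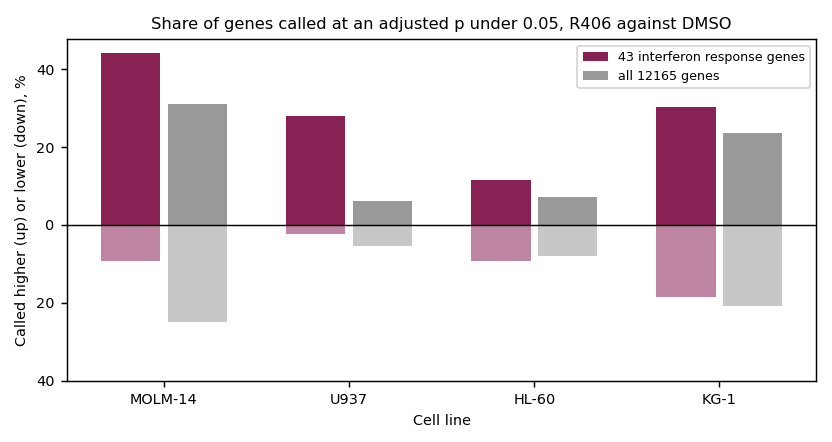
Percent of genes called higher (bars up from 0) or lower (bars down, lighter) under R406 in each line, for the 43 interferon response genes and for all 12165 genes. In U937 27.9% of the list was called higher against 6.1% of all genes, while in MOLM-14 9.3% was called lower against 25% of all genes.

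The 3 R406 arrays lay entirely beyond the 3 DMSO arrays for 26 of the 43 genes in MOLM-14 (57.7% of all genes), 24 in U937 (34%), 14 in HL-60 (32.8%) and 22 in KG-1 (49.7%). Some calls were shared between lines. Higher in all 4 lines were 2 genes, IRF7 and IFI16 (1.06% of all genes). Higher in both MOLM-14 and KG-1 were 11: IRF7, IFIT3, IFIH1, RSAD2, GBP2, HERC6, PML, SP100, SP110, TRIM22 and IFI16 (16.4% of all genes). TRIM22 and XAF1 rose in at least 1 line and fell in another (7.27% of all genes). A call in exactly 1 line was made for 16 genes (26.6% of all genes), and 7 were called in no line (32.1% of all genes): IRF1, OAS2, OASL, MX1, ISG15, LGALS3BP and IFI44L. Among these 7 are genes commonly used to read an interferon response, such as MX1, ISG15 and IFI44L. Of the 7, OAS2, OASL, MX1, LGALS3BP and IFI44L were among the dim genes, which limits what a missing call says.

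**Figure D2:**
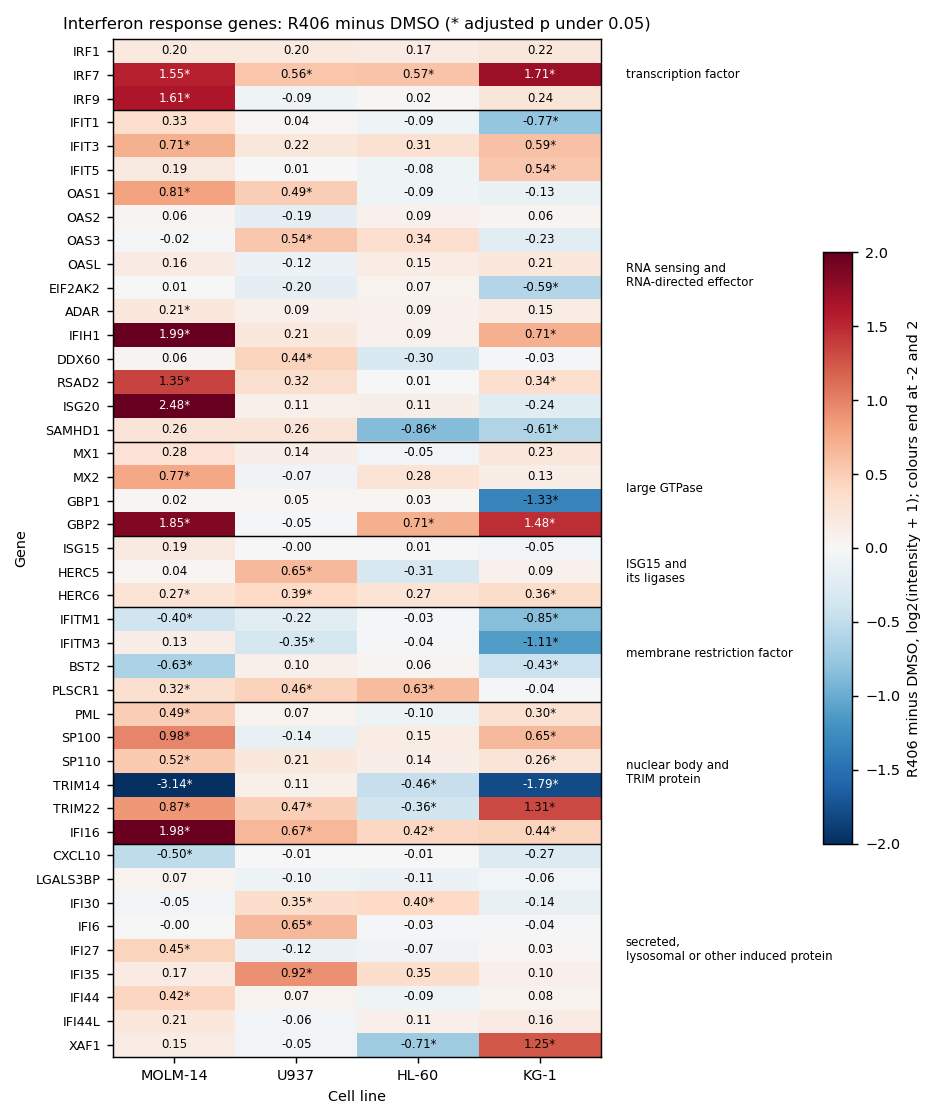
Each cell gives the R406 minus DMSO difference in log2(intensity + 1) for 1 gene (rows, ordered by role) in 1 line (columns); red is higher and blue lower under R406, colours end at -2 and 2, and a star marks an adjusted p under 0.05. MOLM-14 holds the highest value, 2.48 for ISG20, and the lowest, -3.14 for TRIM14.

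Of the 3 transcription factors measured, IRF7 and IRF9 rose in MOLM-14 and IRF7 rose in every line. IRF7, which drives transcription of the interferon alpha genes, read 39.7, 42.6 and 37.8 under DMSO and 110.4, 122 and 125 under R406 in MOLM-14. In KG-1 IRF7 read 19.4, 19.3 and 22.3 under DMSO and 53.2, 90.7 and 67.6 under R406. In both lines the groups lay far apart. The rise was 2.92-fold in MOLM-14 (log2 1.55 ± 0.13 SE, adjusted p = 7.38e-10) and 3.28-fold in KG-1 (1.71, adjusted p = 3.10e-10). In U937 IRF7 read 19.0, 18.3 and 23.4 under DMSO and 27.8, 28.9 and 33.5 under R406. The HL-60 arrays gave 24.8, 25.6 and 28.0 under DMSO and 41.7, 35.6 and 40.8 under R406. These groups did not overlap either, with a smaller rise of 0.56 (adjusted p = 0.00737) and 0.57 (adjusted p = 0.00402). The U937 call was lost without U937 R406 replicate 3 (0.48, adjusted p = 0.0509), and with a pseudocount of 16 the U937 difference was 0.35. The IRF7 effect differed between HL-60 and KG-1 by -1.14 (adjusted p = 3.94e-05), while MOLM-14 minus KG-1 was -0.17 (adjusted p = 0.55).

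IRF9, the DNA-binding partner of STAT2, read 48.5, 49.7 and 49.4 under DMSO and 150.2, 173 and 136 under R406 in MOLM-14. All 3 R406 arrays were above every DMSO array, a 3.06-fold rise (log2 1.61 ± 0.13 SE, adjusted p = 1.56e-10). In KG-1 it read 112, 91.3 and 102 under DMSO and 108, 156 and 101 under R406, where the groups overlapped and the difference of 0.24 was not called. The MOLM-14 effect exceeded that of KG-1 by 1.37 (adjusted p = 2.47e-06) and that of U937 by 1.70 (adjusted p = 5.00e-08). IRF1, an early interferon-induced factor, differed by 0.22 in KG-1, 0.20 in MOLM-14, 0.20 in U937 and 0.17 in HL-60, and was called in no single line. Its mean over the lines was 0.20 ± 0.053 SE (adjusted p = 0.00315). Over the mean of the lines 21 genes of the list rose and 8 fell, against 29.1% and 23.9% of all genes (53% in either direction).

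**Figure D3:**
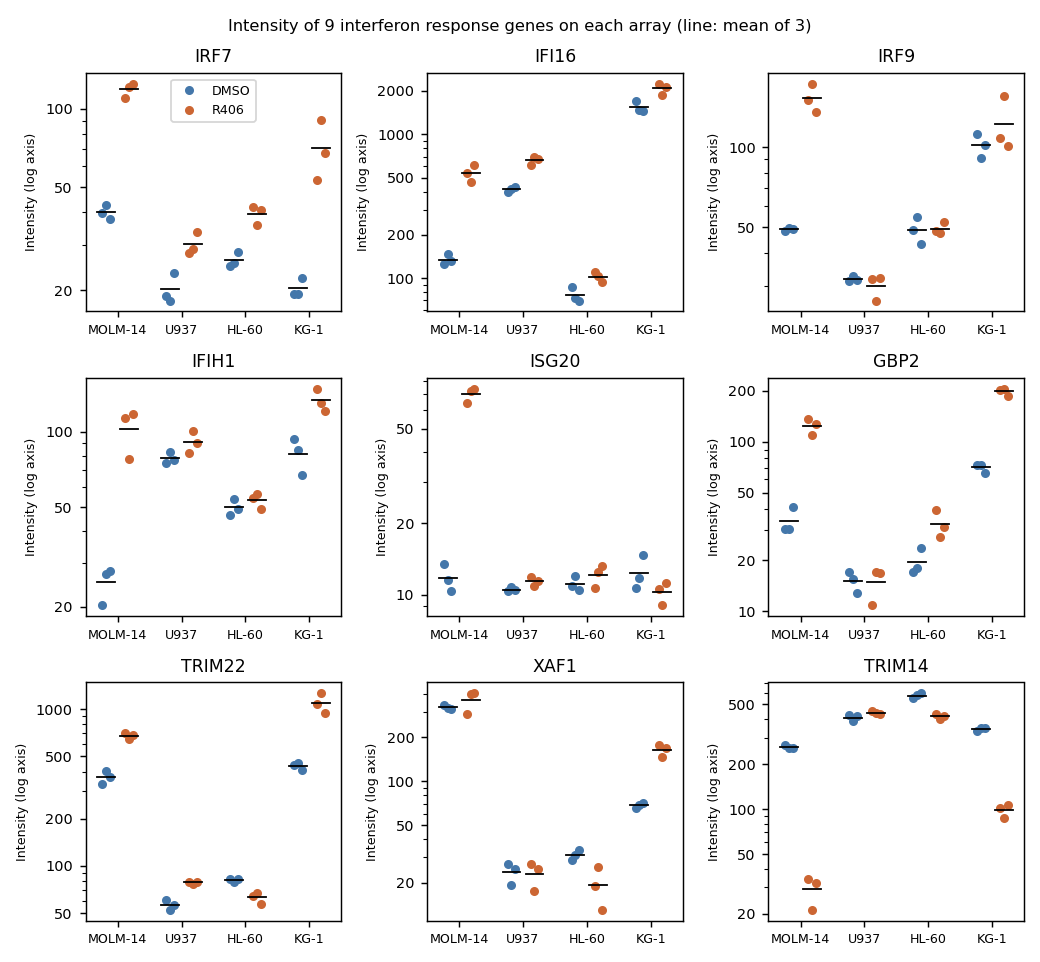
Intensity of 9 genes on every array (log axes), with DMSO in blue, R406 in orange and a line at the mean of 3 arrays. IRF7 and IFI16 were higher under R406 in all 4 lines, ISG20 and IRF9 rose in MOLM-14, and TRIM14 fell in MOLM-14, HL-60 and KG-1.

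Of the 14 genes for RNA sensing and RNA-directed effectors, 6 rose in MOLM-14 (IFIT3, OAS1, ADAR, IFIH1, RSAD2 and ISG20), where 31.1% of all genes rose. In KG-1, 4 rose and 3 fell (23.5% and 20.9% of all genes), in U937 3 rose (OAS1, OAS3 and DDX60; 6.1% of all genes), and in HL-60 SAMHD1 fell (7.98% of all genes). ISG20, an exonuclease that degrades single-stranded RNA, read 13.5, 11.5 and 10.4 under DMSO and 64.6, 72.6 and 73.9 under R406 in MOLM-14. It moved from the edge of the dim range to well above it, 5.59-fold (log2 2.48 ± 0.11 SE, adjusted p = 4.30e-15), and a further probe set of the gene gave 2.76. With a pseudocount of 16 the difference was 1.63. In the other lines it differed by 0.11 (U937), 0.11 (HL-60) and -0.24 (KG-1), and the MOLM-14 effect exceeded theirs by 2.37, 2.37 and 2.73 (adjusted p = 1.60e-11, 1.15e-11 and 4.06e-12).

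IFIH1, the MDA5 sensor of long double-stranded RNA, read 20.3, 27.0 and 27.9 under DMSO and 113, 77.8 and 118 under R406 in MOLM-14. In KG-1 IFIH1 read 93.7, 84.6 and 66.9 under DMSO and 148, 131 and 121 under R406. The groups were apart in both lines, with log2 differences of 1.99 ± 0.14 SE (adjusted p = 4.01e-11) and 0.71 (adjusted p = 0.000236). The effects of the lines differed by 1.28 (adjusted p = 3.29e-05). A further IFIH1 probe set stayed dim in every group, and averaging both gave 0.99 in MOLM-14 and 0.29 in KG-1, still called. RSAD2, or viperin, which makes a chain-terminating nucleotide, read 11.97, 11.4 and 13.99 under DMSO and 31.1, 33.7 and 34.3 under R406 in MOLM-14. In KG-1 RSAD2 read 642, 645 and 670.5 under DMSO and 773, 909 and 805 under R406, far above every other line before treatment. It rose 2.54-fold in MOLM-14 (log2 1.35 ± 0.12 SE, adjusted p = 1.26e-09), or by 0.79 with a pseudocount of 16. The KG-1 rise of 0.34 (adjusted p = 0.022) was lost with median centring (adjusted p = 0.0501) and without KG-1 R406 replicate 2 (0.27, adjusted p = 0.108), DMSO replicate 1 (0.33, adjusted p = 0.0589) or DMSO replicate 2 (0.33, adjusted p = 0.0555).

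SAMHD1, a dNTP hydrolase that starves reverse transcription, fell. In HL-60 it read 362, 362 and 359.8 under DMSO and 197, 199 and 198 under R406, with the groups far apart. In KG-1 it was near the dim range and read 19.5, 16.9 and 11.4 under DMSO and 9.12, 8.87 and 11.8 under R406, and the groups overlapped by 1 array. The difference was -0.86 ± 0.17 SE in HL-60 (adjusted p = 0.000973) and -0.61 in KG-1 (adjusted p = 0.00484), or -0.29 in KG-1 with a pseudocount of 16. MOLM-14 and U937 each gave 0.26, not called, and the HL-60 effect lay below that of U937 by 1.12 (adjusted p = 0.00409).

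Smaller differences were seen for the other effectors. EIF2AK2, the kinase PKR, fell in KG-1 (-0.59, adjusted p = 2.58e-05), with all R406 arrays (61.4 to 68.5) below all DMSO arrays (93.5 to 103). IFIT3, which partners IFIT1 on RNA lacking a methylated cap, rose in MOLM-14 (0.71, adjusted p = 1.89e-05; 0.33 with a pseudocount of 16) and in KG-1 (0.59, adjusted p = 0.000212). IFIT1 itself read 45.8, 52.2 and 50.7 under DMSO and 31.5, 15.98 and 46.3 under R406 in KG-1. The groups overlapped, and the fall of -0.77 (adjusted p = 0.00458) became -0.36 without KG-1 R406 replicate 2 and was lost when KG-1 was fitted alone (adjusted p = 0.0755). IFIT5 rose in KG-1 (0.54, adjusted p = 0.0171), but its further probe set gave -0.28 there. That call was lost when probe sets were averaged (0.13), when KG-1 was fitted alone (adjusted p = 0.0708), and without KG-1 DMSO replicate 1 (adjusted p = 0.0615), DMSO replicate 3 (0.0728) or R406 replicate 2 (0.28, 0.191).

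OAS1, a synthetase of the RNase L activator, rose in MOLM-14 (0.81, adjusted p = 7.47e-05; 0.36 with a pseudocount of 16). In U937 OAS1 rose by 0.49 (adjusted p = 0.0378). That call was lost with median centring (adjusted p = 0.0543) and with a pseudocount of 16 (0.21). It was also lost without any of 5 U937 arrays, DMSO replicate 2 being the exception (adjusted p = 0.0545 to 0.147). A further OAS1 probe set went from 8.19 to 16.6 in U937 (log2 0.95), with the groups apart, and gave 0.79 in MOLM-14. OAS3, a larger synthetase, rose in U937 (0.54, adjusted p = 0.0316); the p ranged from 0.0578 to 0.196 when U937 was fitted alone or U937 DMSO replicate 1 or 2 or R406 replicate 1 or 3 was left out. DDX60, a helicase that aids RNA sensing, rose in U937 (0.44, adjusted p = 0.0312), and leaving out any U937 array but DMSO replicate 3 gave 0.0729 to 0.168. ADAR, an RNA editing enzyme, rose by 0.21 in MOLM-14 (adjusted p = 0.00905), or 0.33 with quantile normalization. The ADAR call was lost with median centring (0.15, adjusted p = 0.0505).

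Among the 4 large GTPases, GBP2 had the widest rise. GBP2, which coats pathogen membranes and is induced mainly by interferon gamma, read 30.7, 30.5 and 41.1 under DMSO and 137, 109.5 and 127 under R406 in MOLM-14. The KG-1 arrays gave 73.0, 73.3 and 65.3 under DMSO and 201, 206 and 187 under R406. The HL-60 arrays gave 17.0, 18.0 and 23.7 under DMSO and 39.6, 27.5 and 31.2 under R406. R406 arrays were above DMSO arrays in these 3 lines, by 3.60-fold in MOLM-14 (1.85 ± 0.16 SE, adjusted p = 9.83e-10), 2.78-fold in KG-1 (adjusted p = 6.63e-08) and 1.64-fold in HL-60 (adjusted p = 0.00325; log2 0.71, or 0.45 with a pseudocount of 16). In U937 it read 17.1, 15.6 and 12.8 under DMSO and 10.8, 17.0 and 16.7 under R406, and the groups overlapped. The U937 effect lay below that of KG-1 by 1.52 (adjusted p = 1.55e-05), while MOLM-14 minus KG-1 was 0.37 (adjusted p = 0.232).

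GBP1, the close relative of GBP2, went the other way in KG-1. It read 159, 122 and 137 under DMSO and 68.6, 33.5 and 70.8 under R406 there, with no overlap, a 2.51-fold fall (log2 -1.33 ± 0.18 SE, adjusted p = 1.54e-06), and a further probe set gave -1.40. In the other lines GBP1 was dim under both treatments, with group means of 6.15 to 6.81. MX2, which restricts HIV at the nuclear pore, rose in MOLM-14 from 14.5 ± 1.47 to 25.9 ± 7.15 (0.77 ± 0.15 SE, adjusted p = 0.000107; 0.45 with a pseudocount of 16), with the groups apart. MX1, the classical marker of type I interferon, was dim in every group and differed by 0.28 in MOLM-14, 0.23 in KG-1, 0.14 in U937 and -0.048 in HL-60.

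ISG15, the ubiquitin-like protein that is joined to other proteins, was called in no line. It read 104, 105 and 87.7 under DMSO and 119, 125 and 95.04 under R406 in MOLM-14. The U937 arrays of ISG15 gave 175, 195 and 209 under DMSO and 195, 201 and 181 under R406, and the groups overlapped in both. HERC5, its main ligase, read 161, 185 and 173 under DMSO and 257, 288 and 273 under R406 in U937. Those groups were apart (1.57-fold, 0.65 ± 0.13 SE, adjusted p = 0.00212), and the U937 effect exceeded that of HL-60 by 0.97 (adjusted p = 0.00182). HERC6, a related ligase, was low in all lines and rose by 0.39 in U937 (adjusted p = 0.024), 0.36 in KG-1 (adjusted p = 0.0112) and 0.27 in MOLM-14 (adjusted p = 0.0487). The MOLM-14 call was lost in 20 of the alternatives. Among them were those without MOLM-14 R406 replicate 3 (0.12, adjusted p = 0.360) or any MOLM-14 DMSO array (0.0536 to 0.159). Others were those without any HL-60 array, KG-1 DMSO replicate 1, KG-1 R406 replicate 3 or replicate 2 of either U937 group (0.0521 to 0.0557). The MOLM-14 difference was 0.16 with quantile normalization. With a pseudocount of 16 the values were 0.12 in MOLM-14, 0.20 in U937 and 0.23 in KG-1. The U937 call was lost without U937 DMSO replicate 2 or 3 or R406 replicate 2 or 3 (adjusted p = 0.0653 to 0.123). The KG-1 call was lost without KG-1 DMSO replicate 3 (0.29, adjusted p = 0.0677) or R406 replicate 1 (0.27, adjusted p = 0.0816).

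Of the 4 membrane-bound factors, 3 fell in KG-1 (IFITM1, IFITM3 and BST2), a line in which 20.9% of all genes fell. In MOLM-14 IFITM1 and BST2 fell and PLSCR1 rose. IFITM3, which blocks fusion of viruses in endosomes, read 793, 707 and 843 under DMSO and 348, 367 and 363 under R406 in KG-1. IFITM1, its cell-surface relative, read 2002, 1762 and 1799 under DMSO and 1058, 1035 and 985 under R406. Both had R406 arrays far below all DMSO arrays, 2.16-fold for IFITM3 (-1.11 ± 0.087 SE, adjusted p = 3.91e-10) and 1.80-fold for IFITM1 (-0.85 ± 0.089 SE, adjusted p = 3.76e-08). Probe sets of these 2 genes may bind each other's transcripts, so their values may not be independent. IFITM1 also fell in MOLM-14 (-0.40, adjusted p = 0.000575), where it read 62.7, 62.9 and 56.3 under DMSO and 52.0, 40.5 and 45.6 under R406. In MOLM-14 IFITM3 differed by 0.13, not called, and its effect there exceeded that in KG-1 by 1.24 (adjusted p = 5.83e-08). In U937 IFITM3 read 347, 346 and 377 under DMSO and 270.4, 289 and 279.6 under R406, a fall of -0.35 (adjusted p = 0.0104) that was lost without U937 DMSO replicate 3 (-0.31, adjusted p = 0.0572).

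BST2, or tetherin, which holds budding virus at the cell surface, read 169.7, 161 and 162 under DMSO and 111, 114 and 93.6 under R406 in MOLM-14. The KG-1 arrays of BST2 gave 301, 283 and 323 under DMSO and 234, 223 and 214 under R406. It fell in both, by -0.63 ± 0.072 SE (adjusted p = 7.61e-08) and -0.43 (adjusted p = 2.31e-05). The difference of these effects was -0.20 (adjusted p = 0.148). PLSCR1, a lipid scramblase, read 231, 259 and 238 under DMSO and 387, 375 and 366 under R406 in HL-60. The U937 arrays of PLSCR1 gave 150.4, 138 and 151 under DMSO and 207, 198 and 197 under R406, with the groups apart. It rose by 0.63 ± 0.064 SE in HL-60 (adjusted p = 2.74e-07), 0.46 in U937 (adjusted p = 4.67e-05) and 0.32 in MOLM-14 (adjusted p = 0.000156). In KG-1 it differed by -0.04, and the HL-60 effect exceeded that of KG-1 by 0.67 (adjusted p = 3.34e-06). A further PLSCR1 probe set gave 0.52 in HL-60, 0.33 in MOLM-14, 0.23 in U937 and 0.23 in KG-1. Its groups overlapped in MOLM-14 and KG-1.

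Of the 6 nuclear body and TRIM proteins, 5 rose and 1 fell both in MOLM-14 and in KG-1, against 31.1% higher and 25% lower of all genes in MOLM-14 and 23.5% and 20.9% in KG-1. The member that fell in both was TRIM14, and the other 5 were PML, SP100, SP110, TRIM22 and IFI16. IFI16, a nuclear DNA sensor, read 125, 148 and 131 under DMSO and 536, 465 and 609.9 under R406 in MOLM-14. In U937 it read 399.9, 418 and 428 under DMSO and 616, 691 and 675 under R406. R406 arrays were the higher ones in both of these lines. In HL-60 it read 87.5, 72.5 and 69.8 under DMSO and 109.6, 104 and 94.5 under R406. The KG-1 arrays gave 1696, 1466 and 1454 under DMSO and 2234, 1878 and 2147 under R406. Every R406 array was above every DMSO array of its line. The rise was 3.95-fold in MOLM-14 (1.98 ± 0.10 SE, adjusted p = 1.56e-13), 0.67 in U937 (adjusted p = 0.000149), 0.42 in HL-60 (adjusted p = 0.00647) and 0.44 in KG-1 (adjusted p = 0.00114). Its 3 probe sets gave 1.86 to 1.98 in MOLM-14. The MOLM-14 effect exceeded that of KG-1 by 1.54 (adjusted p = 2.80e-08), while U937 minus KG-1 was 0.23 (adjusted p = 0.27).

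TRIM14, an adaptor of the mitochondrial antiviral signal, had the largest fall of the list. It read 266, 256 and 256 under DMSO and 34.0, 21.2 and 32.3 under R406 in MOLM-14. The KG-1 arrays gave 333, 346 and 348 under DMSO and 102, 87.3 and 106 under R406. All R406 arrays of both lines were far below the DMSO arrays. In HL-60 TRIM14 read 553, 574 and 593 under DMSO and 429, 402 and 418 under R406. In U937 TRIM14 read 422, 385 and 419.7 under DMSO and 451, 438 and 430.5 under R406. R406 arrays were below DMSO arrays in HL-60 and above them in U937. TRIM14 fell 8.80-fold in MOLM-14 (-3.14 ± 0.11 SE, adjusted p = 2.36e-16), 3.47-fold in KG-1 (adjusted p = 8.49e-12) and 1.38-fold in HL-60 (adjusted p = 0.00557), while the U937 difference of 0.11 was not called. The MOLM-14 effect lay below that of KG-1 by 1.34 (adjusted p = 5.81e-07). The other 3 TRIM14 probe sets gave -2.43, -0.74 and -0.070 in MOLM-14, the last of them dim throughout, and all 4 averaged -1.59 in MOLM-14 and -1.14 in KG-1, still called.

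TRIM22, a nuclear ligase that represses viral promoters, read 441, 454 and 409 under DMSO and 1072, 1261 and 939 under R406 in KG-1. The MOLM-14 arrays gave 334, 404 and 370.2 under DMSO and 699.7, 641 and 688 under R406. R406 arrays were the higher ones in both lines. In U937 TRIM22 read 60.4, 52.4 and 56.2 under DMSO and 79.5, 77.2 and 79.0 under R406. In HL-60 TRIM22 read 82.0, 79.3 and 82.5 under DMSO and 64.6, 67.6 and 57.0 under R406. R406 arrays were above all DMSO arrays in U937 and below all of them in HL-60. It rose by 1.31 ± 0.092 SE in KG-1 (adjusted p = 5.97e-11), 0.87 in MOLM-14 (adjusted p = 2.14e-08) and 0.47 in U937 (adjusted p = 0.00132). It fell by 0.36 in HL-60 (adjusted p = 0.00794), a call lost without HL-60 R406 replicate 3 (-0.29, adjusted p = 0.0618). The difference of the effects was 0.84 (adjusted p = 0.000145) for U937 minus HL-60 and -1.68 (adjusted p = 1.43e-09) for HL-60 minus KG-1.

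SP100, a scaffold of nuclear bodies, read 177, 141 and 165 under DMSO and 277, 319 and 358 under R406 in MOLM-14. The KG-1 arrays of SP100 gave 290.4, 331 and 299.96 under DMSO and 493, 486 and 468 under R406. Both lines had separate groups, and it rose by 0.98 ± 0.099 SE (adjusted p = 1.28e-08) and 0.65 (adjusted p = 7.99e-06); the average over 5 probe sets was 0.40 in MOLM-14, still called. SP110, a related reader of chromatin, rose by 0.52 in MOLM-14 (adjusted p = 1.24e-05) and 0.26 in KG-1 (adjusted p = 0.013). The SP110 call in KG-1 was lost without KG-1 DMSO replicate 2 (0.23, adjusted p = 0.0638) or R406 replicate 2 (0.21, adjusted p = 0.0703), and was 0.42 with probe sets averaged. PML, which organises the bodies, rose by 0.49 in MOLM-14 (adjusted p = 0.00094), where its groups overlapped, and 0.30 in KG-1 (adjusted p = 0.0362). Its 8 probe sets disagreed, and averaged 0.065 in MOLM-14 and -0.00076 in KG-1, neither called. The PML call in KG-1 was also lost with quantile normalization, median centring and KG-1 fitted alone, and without KG-1 DMSO replicate 2, DMSO replicate 3 or R406 replicate 3 (adjusted p = 0.0534 to 0.170).

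Of the 9 secreted, lysosomal or other induced proteins, 3 rose in U937 (6.1% of all genes), 2 in MOLM-14 (31.1%), 1 in HL-60 (7.2%) and 1 in KG-1 (23.5%). IFI35, which binds the transcription factor BATF, read 11.8, 12.9 and 15.7 under DMSO and 28.5, 22.7 and 27.9 under R406 in U937. IFI6, a mitochondrial and endoplasmic reticulum protein, read 166, 141 and 149.8 under DMSO and 241, 254 and 224 under R406. Both had separate groups and rose, IFI35 by 0.92 ± 0.12 SE (adjusted p = 2.10e-05; 0.52 with a pseudocount of 16) and IFI6 by 0.65 ± 0.11 SE (adjusted p = 0.000272). The U937 effect exceeded that of HL-60 by 0.57 (adjusted p = 0.0418) for IFI35 and 0.68 (adjusted p = 0.00539) for IFI6.

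IFI30, a lysosomal thiol reductase of antigen processing, read 1246, 1259 and 1361 under DMSO and 1677, 1582 and 1672 under R406 in U937. The HL-60 arrays of IFI30 gave 694, 776 and 807 under DMSO and 863, 1155 and 1004 under R406. The groups were apart in both lines, with rises of 0.35 (adjusted p = 0.0184) and 0.40 (adjusted p = 0.00529). The U937 call was lost without U937 DMSO replicate 1 or 2 or R406 replicate 1 or 3 (adjusted p = 0.0649 to 0.0733), and the HL-60 call without HL-60 R406 replicate 2 (0.30, adjusted p = 0.0528). XAF1, which opposes the apoptosis inhibitor XIAP, read 65.5, 69.0 and 71.3 under DMSO and 179, 146 and 169.6 under R406 in KG-1. The HL-60 arrays of XAF1 gave 28.8, 31.0 and 33.6 under DMSO and 19.0, 25.6 and 13.0 under R406. Its groups lay apart in opposite directions, 1.25 ± 0.18 SE in KG-1 (adjusted p = 3.54e-06) and -0.71 in HL-60 (adjusted p = 0.00765). The HL-60 call was lost without HL-60 R406 replicate 3 (-0.47, adjusted p = 0.0762), and HL-60 minus KG-1 was -1.96 (adjusted p = 1.93e-06). In MOLM-14, where XAF1 was highest before treatment, it read 333, 321 and 315 under DMSO and 289, 400.0 and 402 under R406, and the groups overlapped.

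In MOLM-14 the dim chemokine gene CXCL10 fell by 0.50 (adjusted p = 0.000499) and the dim IFI27 and the low IFI44 rose by 0.45 (adjusted p = 0.000879) and 0.42 (adjusted p = 0.012). With a pseudocount of 16 these values were -0.20, 0.16 and 0.17. Averaging the IFI44 probe sets gave 0.26, still called. The IFI44 call was lost with that pseudocount, with MOLM-14 fitted alone (adjusted p = 0.0787) and without MOLM-14 DMSO replicate 1 (0.36, adjusted p = 0.0547) or R406 replicate 1 (0.21, adjusted p = 0.140). LGALS3BP and IFI44L, both dim, were called in no line.

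The effect of R406 differed between lines for 32 of the 43 genes by the moderated F test, against 54.8% of all genes. Between pairs of lines, 22 genes differed for MOLM-14 against U937 (43.8% of all genes), 22 for MOLM-14 against HL-60 (45.2%), 18 for MOLM-14 against KG-1 (33.4%), 21 for U937 against KG-1 (33.3%), 14 for HL-60 against KG-1 (35.6%) and 8 for U937 against HL-60 (7.23%). The widest range over lines was that of TRIM14, 3.25, followed by ISG20 with 2.73 and XAF1 with 1.96. As a description, the Spearman correlation of effects across the 43 genes was 0.63 between MOLM-14 and KG-1, where all 12165 genes gave 0.64. The other 5 pairs gave 0.14 to 0.28, and all genes 0.20 to 0.34; genes are not independent replicates.

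Before treatment the lines already differed in these genes: the DMSO level differed for 36 of 43 by the F test, against 68.1% of all genes. Between pairs of lines, 33 genes differed for HL-60 against KG-1 (48.6% of all genes), 32 for MOLM-14 against KG-1 (51.2%), 29 for U937 against KG-1 (50.9%), 29 for MOLM-14 against U937 (47%), 27 for MOLM-14 against HL-60 (46%) and 23 for U937 against HL-60 (48.2%). The highest DMSO mean was that of KG-1 for 23 of the 43 (22.6% of all genes), of U937 for 10 (24.4%), of MOLM-14 for 6 (25.2%) and of HL-60 for 4 (27.7%). KG-1 was above each of the other 3 lines for 18 (11.9% of all genes). These 18 were IRF1, IRF9, IFIT1, IFIT3, IFIT5, ADAR, RSAD2, GBP1, GBP2, HERC6, IFITM1, IFITM3, PLSCR1, SP100, SP110, TRIM22, IFI16 and IFI44. U937 was above all others for 6 (10.7% of all genes), namely OAS3, MX2, ISG15, HERC5, IFI30 and IFI6. MOLM-14 was above all others for IRF7, OAS2, CXCL10 and XAF1 (9.23% of all genes), and HL-60 for SAMHD1 and TRIM14 (9.12%). HL-60 was below all others for 6 genes (6.31% of all genes), EIF2AK2, ISG15, HERC5, IFITM1, IFITM3 and IFI16. U937 was below all others for IRF9, PLSCR1, TRIM22 and IFI35 (8.01% of all genes), and MOLM-14 for IFIH1, SP100, TRIM14 and IFI6 (7.62%). The median of the list was 68.6 in KG-1, 39.98 in MOLM-14, 31.1 in HL-60 and 30.6 in U937.

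**Figure D4:**
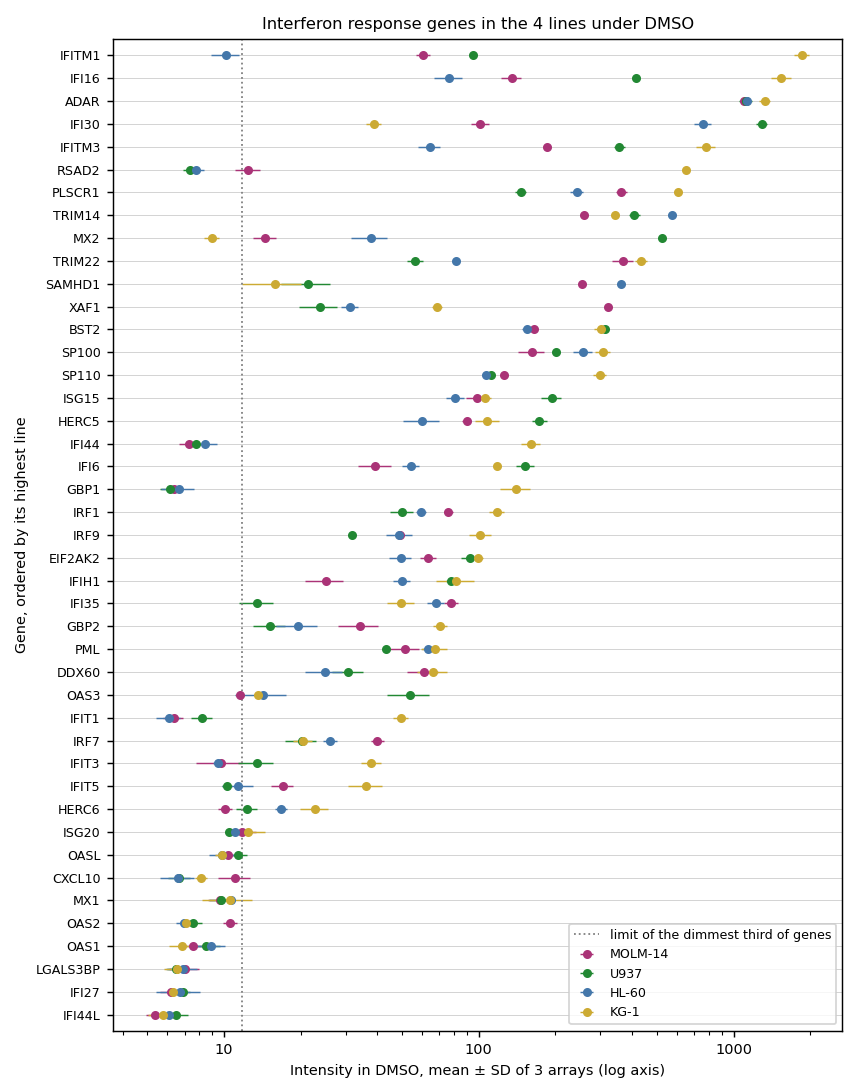
DMSO intensity of each gene in the 4 lines (mean ± SD of 3 arrays, log axis), ordered by the highest line, with a dotted line at 11.7, the limit of the dimmest 33.3% of genes. KG-1 is furthest right for 23 of the 43 genes, and IFITM1 spans the widest range, from 10.2 in HL-60 to 1854 in KG-1.

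The widest range was that of IFITM1, which was 1854 ± 129 in KG-1, 95.2 ± 1.47 in U937, 60.6 ± 3.73 in MOLM-14 and 10.2 ± 1.29 in HL-60 (all SD, n = 3), and every pair of lines differed. RSAD2 was 652 ± 15.7 in KG-1, 12.4 ± 1.38 in MOLM-14, 7.73 ± 0.615 in HL-60 and 7.36 ± 0.485 in U937, of which HL-60 and U937 did not differ beyond their spread. GBP1 and IFI44 showed the same order of KG-1 over dim levels elsewhere: GBP1 was 139.6 ± 18.8 in KG-1 and 6.15 to 6.65 in the rest, and IFI44 161 ± 13.5 and 7.26 to 8.39. IFI16 was 1538 ± 136 in KG-1, 415 ± 14.3 in U937, 135 ± 11.99 in MOLM-14 and 76.6 ± 9.54 in HL-60, with every pair apart.

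In KG-1 3 genes lay below each other line: MX2, IFI30 and SAMHD1 (10.5% of all genes). MX2 was 524 ± 6.57 in U937, 37.7 ± 6.08 in HL-60, 14.5 ± 1.47 in MOLM-14 and 8.95 ± 0.601 in KG-1. IFI30 followed the same order, with 1289 ± 62.8, 759 ± 58.3, 101 ± 8.12 and 38.8 ± 2.57. SAMHD1 was 361 ± 1.16 in HL-60, 253 ± 1.35 in MOLM-14, 21.4 ± 4.61 in U937 and 15.9 ± 4.15 in KG-1. Among the factors, IRF9 was 102 ± 10.2 in KG-1, 49.2 ± 0.588 in MOLM-14, 48.8 ± 5.68 in HL-60 and 31.9 ± 0.695 in U937, and MOLM-14 and HL-60 did not differ beyond their spread. IRF7 was 40.03 ± 2.41 in MOLM-14, 26.1 ± 1.68 in HL-60, 20.4 ± 1.72 in KG-1 and 20.2 ± 2.77 in U937, and KG-1 and U937 did not differ beyond their spread.

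The genes that make, receive and relay the interferon signal were read from a second list, of which 39 genes were measured. Of the 39, 17 rose and 4 fell in MOLM-14 (31.1% and 25% of all genes), 14 rose in KG-1 (23.5%), 11 rose and 1 fell in HL-60 (7.2% and 7.98%), and 3 rose and 1 fell in U937 (6.1% and 5.43%). The 11 that rose in HL-60 became 7 without HL-60 DMSO replicate 2, where TYK2, IRF2, PIAS1 and PTPN6 were no longer called, and 8 or 9 without another HL-60 array. The 11 interferon genes were all dim, with single-array intensities of 4.21 to 13.5. IFNA16 (0.35, adjusted p = 0.000852; 0.12 with a pseudocount of 16) and IFNA8 (0.20, adjusted p = 0.0291) were called in MOLM-14. The IFNA8 call was lost in 9 of the alternatives, among them those without MOLM-14 DMSO replicate 1 or 2 or R406 replicate 1 or 2 (adjusted p = 0.0688 to 0.101).

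Of the 4 kinases and STATs measured, 4 rose in MOLM-14 (31.1% of all genes) and in KG-1 (23.5%), and 3 in U937 (6.1%) and in HL-60 (7.2%). JAK1, which serves both interferon receptors, read 405, 418 and 416 under DMSO and 930.0, 939 and 969 under R406 in MOLM-14. The KG-1 arrays of JAK1 gave 859, 813 and 772 under DMSO and 1336, 1609.6 and 1367 under R406. It rose by 1.19 ± 0.074 SE in MOLM-14 (adjusted p = 2.97e-12), 0.81 in KG-1 (adjusted p = 3.87e-09), 0.39 in HL-60 (adjusted p = 0.000663) and 0.39 in U937 (adjusted p = 0.00113), and its groups did not overlap in any line. JAK2 read 49.7, 46.7 and 50.7 under DMSO and 142, 152 and 170.3 under R406 in MOLM-14, a rise of 1.63 (adjusted p = 9.95e-12), and rose by 0.68 in KG-1 (adjusted p = 1.58e-05). TYK2, the kinase of IFNAR1, rose by 1.20, 0.52, 0.44 and 0.36 in MOLM-14, KG-1, U937 and HL-60, the last lost without HL-60 DMSO replicate 2 (0.31, adjusted p = 0.0628). STAT3 rose by 0.97 in MOLM-14 (adjusted p = 1.33e-10), 0.51 in HL-60 (adjusted p = 3.97e-05), 0.36 in U937 (adjusted p = 0.00238) and 0.22 in KG-1 (adjusted p = 0.019). The KG-1 call for STAT3 was lost with median centring, probe sets averaged or KG-1 fitted alone, and without KG-1 DMSO replicate 2 (adjusted p = 0.0581), DMSO replicate 3 (0.0719) or R406 replicate 2 (0.12, 0.169).

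**Figure D5:**
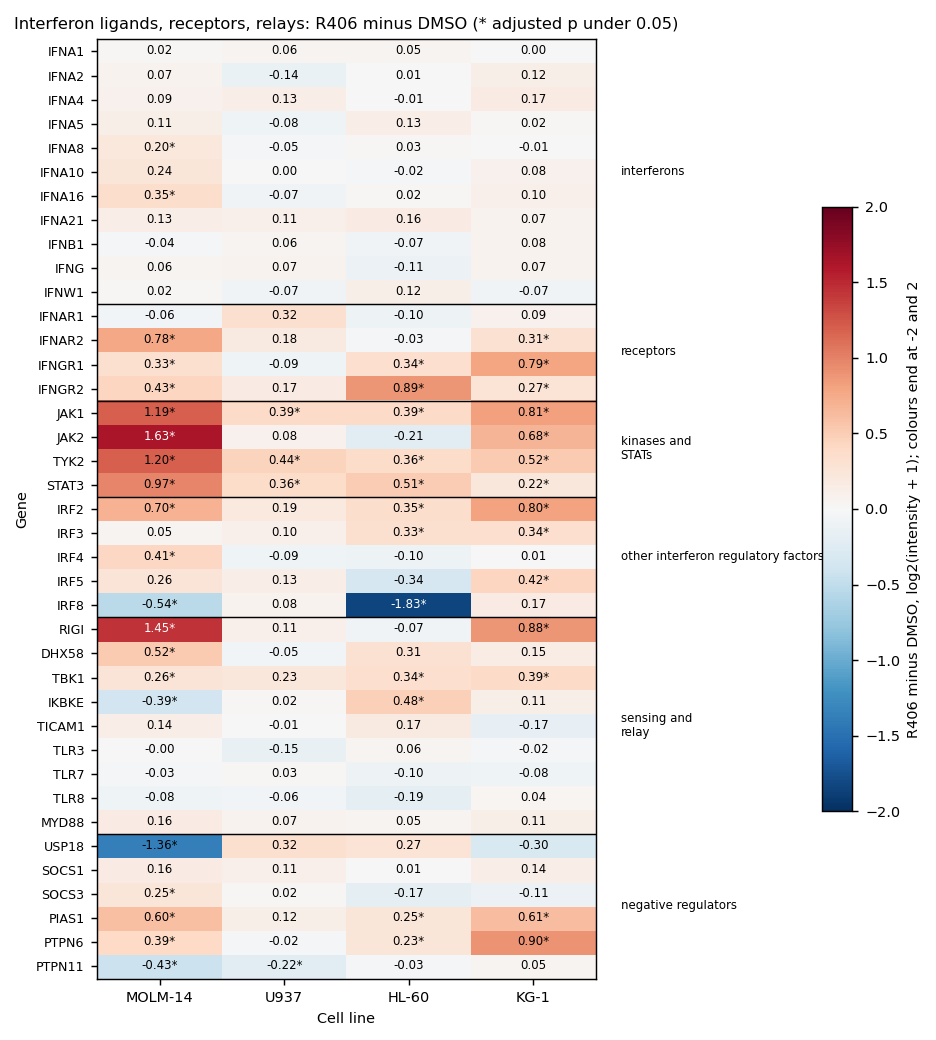
R406 minus DMSO differences in log2(intensity + 1) for the 39 genes of interferons, receptors, kinases, regulatory factors, sensing and restraint (rows) in the 4 lines (columns), coloured and starred as for the response genes. JAK1, TYK2 and STAT3 were higher in all 4 lines, and IRF8 fell by 1.83 in HL-60.

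Of the receptor chains, IFNGR2 read 392, 405 and 413 under DMSO and 764, 726 and 752 under R406 in HL-60. IFNGR1 read 486, 485 and 503 under DMSO and 798, 923 and 827 under R406 in KG-1. These were rises of 0.89 (adjusted p = 1.90e-09) and 0.79 (adjusted p = 2.74e-10) with groups far apart, and IFNAR2 rose by 0.78 in MOLM-14 (adjusted p = 7.21e-08) and 0.31 in KG-1 (adjusted p = 0.00601). IRF8, a myeloid lineage factor that also answers interferon gamma, read 292, 298 and 287 under DMSO and 77.0, 84.3 and 83.1 under R406 in HL-60. It fell 3.56-fold there (-1.83 ± 0.11 SE, adjusted p = 1.37e-10) and by 0.54 in MOLM-14 (adjusted p = 0.000195). RIGI, the sensor of short double-stranded RNA and sister of IFIH1, read 43.3, 43.4 and 46.2 under DMSO and 118, 118 and 134 under R406 in MOLM-14. The KG-1 arrays of RIGI gave 25.9, 25.0 and 24.9 under DMSO and 42.3, 50.02 and 50.01 under R406. Like IFIH1 it rose in both, by 1.45 (adjusted p = 2.24e-09) and 0.88 (adjusted p = 6.89e-06).

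Among the genes that restrain the response, USP18, which strips ISG15 from proteins and dampens IFNAR2, read 39.9, 44.4 and 39.9 under DMSO and 14.6, 15.4 and 16.5 under R406 in MOLM-14. It fell 2.57-fold there (-1.36 ± 0.13 SE, adjusted p = 6.01e-09, or -0.86 with a pseudocount of 16), in a line where 25% of all genes fell. PTPN6, the phosphatase SHP-1, read 413, 409 and 437 under DMSO and 782, 859 and 721 under R406 in KG-1, a rise of 0.90 (adjusted p = 9.19e-10), and PIAS1, a SUMO ligase, rose by 0.61 in KG-1 (adjusted p = 9.17e-07) and 0.60 in MOLM-14 (adjusted p = 8.04e-07). PTPN11, the phosphatase SHP-2, fell by 0.43 in MOLM-14 (adjusted p = 1.22e-05, or -0.27 with quantile normalization). It fell by 0.22 in U937 (adjusted p = 0.0411), a call lost with quantile normalization and without any U937 array but DMSO replicate 2, HL-60 R406 replicate 2 or MOLM-14 DMSO replicate 3 (adjusted p = 0.0506 to 0.187).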

How the data were processed

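RNA was hybridised to 24 Affymetrix high-throughput human 3′ expression arrays, 3 for each of 8 groups. The deposited values are linear intensities of 22277 probe sets, made by the authors with RMA per the submitters' processing notes; its version, the background step and the scaling are not given in the sources used here. RMA draws arrays together and compresses low values. Here 62 control probe sets, 568 with several symbols and 1923 without a symbol were left out, using GEO's platform annotation with symbols brought up to date through RefSeq.

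The 12165 genes were fitted as log2(intensity + 1) with limma 3.58.1 in R 4.3.3, with 8 group means over all 24 arrays. This gave 16 residual degrees of freedom, and p-values were adjusted by Benjamini-Hochberg over all genes. Differences between lines used contrasts and moderated F tests. The fit was tested on simulated data. The genes, lists and tests were chosen with earlier results of these data known. Named with values were, per line, the 5 called genes with the smallest p, the 8 with the widest range of effect, the 6 with the widest range of DMSO means, those called alike in all 4 lines, the transcription factors, and up to 4 called pathway genes per line; further called members are given in short. Alternatives were another scaling (quantile, median centring), a pseudocount of 16, a filter on dim genes, averaged probe sets, an intensity trend, each line alone, a replicate block and leaving out each array. Some items are not reported here.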

Additional observations from a re-analysis of the deposited data

Results flagged for a closer look

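For 18 of the genes given with their values, the effect of R406 differed between the 4 lines by the moderated F test (limma, adjusted over all genes). Some of these genes were chosen for a wide range of effect, and others for a small p in a line. The count of 18 therefore does not say how common such differences are. By the same test 32 of the 43 response genes differed, against 54.8% of all genes. The range of the effect over the lines, highest minus lowest on the log2 scale, was 3.25 for TRIM14, 2.73 for ISG20, 1.96 for XAF1, 1.89 for IFIH1 and for GBP2, 1.70 for IRF9, 1.68 for TRIM22, 1.56 for IFI16, 1.34 for RSAD2, 1.24 for IFITM3, 1.16 for IRF7 and 1.13 for SAMHD1. It was under 1 for MX2 (0.84), IFITM1 (0.82), IFI35 (0.82), IFI6 (0.69), PLSCR1 (0.67) and IFI30 (0.54). The lines also differ in RNA quality ratios, marker sums and starting level, as given with the results, and the part of these in the differences was not tested.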

How the results depend on the processing

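Of the 66 called effects of the response genes, 46 kept their call and direction under every alternative that gave a value: 15 of 21 KG-1 effects, 19 of 23 MOLM-14 effects, 6 of 13 U937 effects and 6 of 9 HL-60 effects. PML in KG-1 turned to -0.00076 with probe sets averaged. The count of genes lower in U937 was 2 with a pseudocount of 16, with probe sets averaged or with U937 fitted alone. Leaving out each array in turn gave 6 to 13 higher and 0 to 1 lower in U937 (the 0 without U937 DMSO replicate 3), 2 to 5 lower and 5 to 6 higher in HL-60, 17 to 20 higher and 4 lower in MOLM-14, and 10 to 15 higher and 8 to 9 lower in KG-1. Same-numbered replicates did not deviate together (correlations -0.084 to 0.071 over 12 pairs). No shared shift was seen, but this cannot show whether the numbers pair the arrays, which the labels do not say. With the replicate block 18 genes were higher and 4 lower in MOLM-14, and 14 and 9 in KG-1. The counts were then 10 and 1 in U937 and 6 and 4 in HL-60. The calls of DDX60 (adjusted p = 0.101) and HERC6 (0.0585) in U937 and of HERC6 in MOLM-14 (0.0778) were lost with the block. Median centring moved the median of all genes by -0.054 to -0.024, and the share of called genes that were higher in U937 went from 52.9% to 42.4% of all genes and from 92.3% to 91.7% of the response genes; in KG-1 the latter share went from 61.9% to 52.4%, or 56.5% with quantile normalization. A pseudocount of 16 moved 17 of the 66 values by over 1.5 times, which limits the folds of genes near the dim range.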
